A study of Homo sapiens with 6 samples.

Results

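PRPF39 is the gene targeted by the knockdown in this experiment, and it was followed here through 1 row of the deposited tables, ENST00000355765, its main protein-coding transcript. The transcript was found by its identifier, which occurred once among the 203028 transcripts of each table. It is 2868 bases long in those tables. HEK293 cells, an established human embryonic kidney cell line, were transduced with lentivirus carrying either scrambled control shRNAs or shRNAs against PRPF39, and cells with an integrated construct were selected with puromycin. Both groups therefore went through transduction and selection. Polyadenylated RNA was sequenced from 3 control shRNA and 3 PRPF39 shRNA libraries. The labels give neither the shRNA sequences nor whether the replicates were separate transductions, so a p-value here reflects how far these libraries scatter, and that scatter may be technical.

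PRPF39 is a splicing factor that works with the U1 snRNP, the small nuclear ribonucleoprotein that recognises the 5′ splice site when an intron is first defined. The protein is built largely of HAT repeats, a helical repeat that serves as a scaffold for protein contacts. Its yeast counterpart Prp39 is a stable part of the U1 snRNP, where it pairs with the related protein Prp42, while the mammalian protein pairs with itself. An shRNA acts on the mRNA of its target, so the level of this transcript was read as a check of the depletion that the group labels imply. Without the shRNA sequences, whether they match this transcript is not known here.

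In the RefSeq annotation of GRCh38.p14, PRPF39 is a protein-coding gene on chromosome 14 from 45084116 to 45116282, a span of 32167 bases. The long noncoding gene PRPF39-DT ends 89 bases to its left. The small nucleolar RNA gene SNORD127 (45110875 to 45110975) and a further small nucleolar RNA gene, LOC124903416, lie inside the span. At the right end, the last 684 bases of the span are shared with FKBP3 (45115599 to 45134481), a protein-coding gene on the minus strand that encodes a member of the FKBP family of prolyl isomerases. The labels do not say whether the libraries kept strand, and the share of reads that fell in this overlap was not analysed here.

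The transcript was detected in all 6 libraries and was lower with PRPF39 shRNA, at about 52% of the control level. Control libraries 1, 2 and 3 gave 9.98, 9.86 and 7.60 TPM (a relative level corrected for transcript length and depth). PRPF39 shRNA libraries 1, 2 and 3 gave 5.80, 3.45 and 5.14 TPM. The groups did not overlap: the highest PRPF39 shRNA library stood below the lowest control library by 1.80 TPM. Such a separation, with PRPF39 shRNA lower, was found in TMM-scaled CPM for 12.8% of the 97571 transcripts tested. Control replicate 3 was the lowest of its group and PRPF39 shRNA replicate 2 the lowest of all 6.

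The control mean was 9.15 ± 1.34 TPM and the PRPF39 shRNA mean 4.80 ± 1.21 TPM (SD over 3 libraries in each group). The difference of -4.35 TPM exceeded the SD of either group, and the transcript stood at 52.4% of the control mean. All 20 assignments of the 6 libraries to groups of 3 gave an exact two-sided permutation p = 0.1, which is the smallest p that this design allows. Set against the control mean, the PRPF39 shRNA libraries retained 63.5%, 37.7% and 56.2% for replicates 1, 2 and 3. The control libraries stood at 109.1%, 107.8% and 83.1% of the same mean. The transcript was thus partly retained in every PRPF39 shRNA library. Whether depletion differed between these libraries, beyond the scatter also seen among controls, was not tested. In bulk RNA, a partial loss in all cells and a deeper loss in some of them cannot be told apart.

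**Figure D1:**
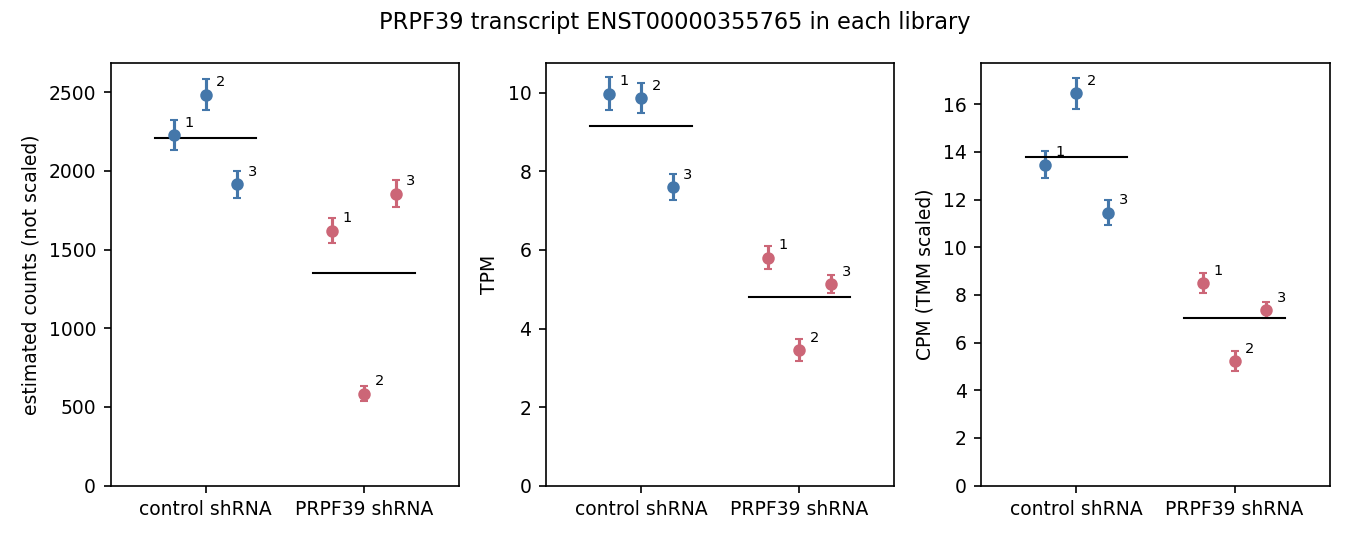
Level of the PRPF39 transcript in each library as estimated counts, TPM and TMM-scaled CPM. Points are libraries numbered by replicate, bars are exact 95% Poisson intervals of the count and horizontal lines are group means. The 3 PRPF39 shRNA libraries lie below the 3 control libraries on each scale, and PRPF39 shRNA replicate 2 is the lowest.

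In the estimated counts before any scaling, the groups did not overlap but lay close together. Control libraries held 2226, 2484 and 1914 estimated counts of the transcript, and PRPF39 shRNA libraries held 1620, 585 and 1856. Library totals were 158588987, 160302853 and 165751423 estimated counts in control and 191602680, 113747941 and 246491084 in PRPF39 shRNA libraries. PRPF39 shRNA replicate 3, the deepest of the 6 libraries, gave fewer counts of the transcript than any control library. Its exact 95% Poisson interval, 1773 to 1942 counts, overlapped that of control replicate 3, 1829 to 2002 counts, so on this unscaled measure these libraries were not distinguishable by counting error. PRPF39 shRNA replicate 2 had both the smallest total and the lowest level of the transcript, and the part of depth in that level was not tested.

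Counting error was small beside the spread between libraries. The exact 95% Poisson interval ran from 7.26 to 7.95 TPM for control replicate 3, the lowest control, and from 5.52 to 6.09 TPM for PRPF39 shRNA replicate 1, the highest PRPF39 shRNA library. The interval was widest in relative terms for PRPF39 shRNA replicate 2, at 3.17 to 3.74 TPM. These intervals cover counting error only, since reads are not independent molecules and the quantifier's allocation of shared reads is not in them. The relative counting error was 2.0% to 4.1% of the count, whereas the coefficient of variation of TPM was 14.7% among control and 25.3% among PRPF39 shRNA libraries.

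Scaling by total counts or by TMM (trimmed mean of M-values, a factor that allows for differences in library composition) also kept the groups apart. In CPM of the total count, control libraries ran from 11.5 to 15.5, and PRPF39 shRNA libraries 1, 2 and 3 gave 8.45, 5.14 and 7.53. In TMM-scaled CPM, control libraries 1, 2 and 3 gave 13.5, 16.5 and 11.5, and PRPF39 shRNA libraries gave 8.50, 5.22 and 7.36. The PRPF39 shRNA mean was 51.4% of the control mean on the first of these scales and 50.9% on the second. Control replicates 1 and 2 exchanged rank between TPM and CPM, while the order of the other 4 libraries was the same on all 3 scales.

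Each PRPF39 shRNA library was also set against each control library. In all 9 pairs the PRPF39 shRNA library was lower. The TPM ratio ran from 34.6% for PRPF39 shRNA replicate 2 against control replicate 1 to 76.4% for PRPF39 shRNA replicate 1 against control replicate 3. In TMM-scaled CPM the ratio ran from 31.7% to 74.2%. The 9 pairs share libraries and are not independent.

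The effective length that the quantifier gave the transcript did not separate the groups. It ran from 1770 to 1783 bases in control and from 1752 to 1812 bases in PRPF39 shRNA libraries, with means of 1778 and 1779 bases. It averaged 62.0% of the annotated length, while the median was 95.9% among 2087 transcripts within 10% of its length that averaged 5 CPM or more. The TPM of this transcript is therefore higher for a given count than that of most transcripts of its length, in both groups alike.

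The transcript was a moderately abundant one. With a mean of 10.4 TMM-scaled CPM it was above 86.0% of the 97571 transcripts tested, and below most of the abundant ones, since 32.4% of those averaging 5 CPM or more were lower. Ranked by TPM within a library, it stood at 11146, 10091 and 12818 in control libraries 1, 2 and 3. In PRPF39 shRNA libraries 1, 2 and 3 it stood at 15923, 22316 and 17791, out of 118020 to 128309 transcripts with reads.

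Across the whole table, edgeR's quasi-likelihood test gave a log2 fold change of -0.97 ± 0.22 (SE), with a 95% interval from -1.50 to -0.45. On the linear scale this interval allows a remaining level of 35.5% to 73.3% of control. The unadjusted p was 0.00338, and the Benjamini-Hochberg adjusted p over all 97571 transcripts was 0.106 (edgeR), so the transcript did not pass the threshold of 0.05. In this test 0.904% of the transcripts tested were called, and 0.461% of the transcripts tested were called lower. An unadjusted p under 0.05 with a negative fold change was found for 8.25% of transcripts.

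When the test was restricted to transcripts averaging at least 5 CPM, the transcript passed. Its log2 fold change was -1.01 ± 0.21 (SE), with a 95% interval from -1.49 to -0.54 and an adjusted p of 0.0177 over 20216 transcripts (edgeR). The interval allows a remaining level of 35.6% to 68.9% of control. In that test 17.7% of transcripts were called and 9.13% were called lower, while 16.9% had PRPF39 shRNA libraries wholly below the controls. The call was lost without control replicate 2 (adjusted p = 0.0588, edgeR) and without PRPF39 shRNA replicate 3 (adjusted p = 0.0621, edgeR). It was kept without each of the other 4 libraries in turn. DESeq2, fitted to the wider set, also called the transcript (log2 fold change -0.95 ± 0.23 SE, adjusted p = 0.000967). DESeq2 called 9.25% of the 97571 transcripts, and called 4.23% lower. It was run with its default filter, which can leave low-count transcripts out of the adjustment. Its adjusted p and that of edgeR may therefore not cover the same transcripts.

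The size of the difference was large but not extreme among abundant transcripts. Of the 20216 transcripts in this restricted test, 386 had a more negative log2 fold change than PRPF39, which is 1.91%, and 308 of those 386 were called. The median log2 fold change of all 20216 was 0.00. Over all 97571 transcripts, 8.89% had a more negative log2 fold change.

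**Figure D2:**
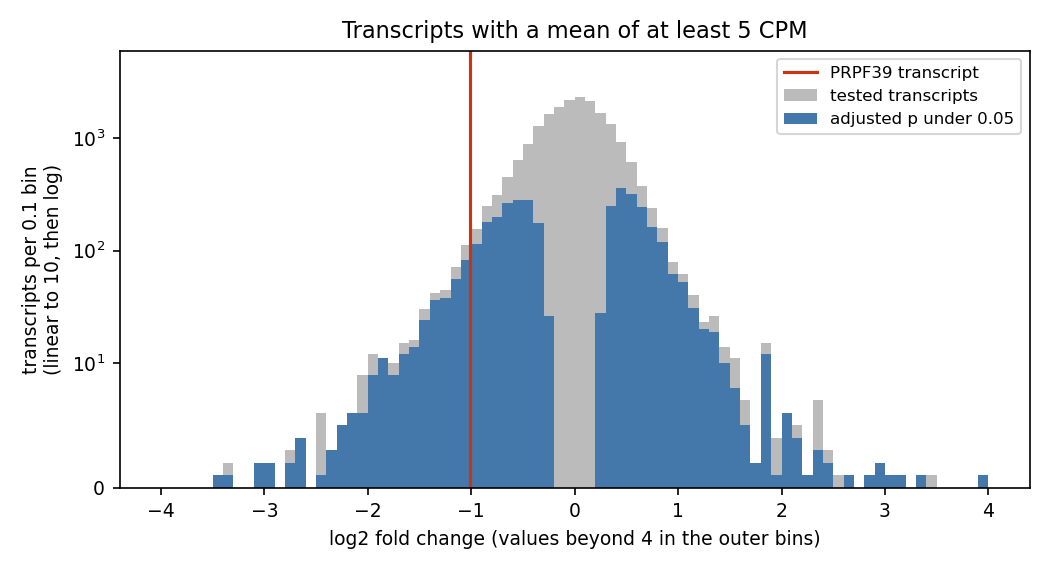
Distribution of log2 fold changes, PRPF39 shRNA against control shRNA, for the 20216 transcripts averaging 5 CPM or more, in bins of 0.1 on the x axis and with the number per bin on the y axis (linear to 10, log above). Blue marks the 3574 called transcripts and the red line the PRPF39 transcript at -1.01, with 386 transcripts to its left.

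Transcripts with the most similar profile over the 6 libraries were sought by Pearson correlation of log2 CPM among 20222 others averaging 5 CPM or more. These values are descriptions, since a difference between the 2 groups can by itself give a high correlation over 6 libraries. The correlation exceeded 0.9 for 926 transcripts (4.58%) and lay below -0.9 for 564 (2.79%). The tables used here do not pair these identifiers with genes, so the nearest are given by identifier alone.

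The most similar was ENST00000436013 (1142 bases), with r = 0.999. Control libraries 1, 2 and 3 gave 15.4, 19.5 and 12.8 CPM, and PRPF39 shRNA libraries gave 9.91, 5.48 and 8.10 CPM. Its log2 fold change of -1.02 ± 0.25 (SE) was close to that of PRPF39. Like PRPF39 it passed in the test restricted to 5 CPM or more (adjusted p = 0.0213, edgeR) and not in the wider one (adjusted p = 0.126, edgeR). The next was ENST00000394991 (1290 bases, r = 0.996). It followed the same order of libraries over a narrower range, from 15.2 CPM in control replicate 2 to 10.1 CPM in PRPF39 shRNA replicate 2. Its log2 fold change was -0.36 ± 0.11 (SE). The adjusted p was 0.0477 in the test restricted to 5 CPM or more and 0.185 in the wider one (edgeR).

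The most opposite profiles were those of ENST00000238788 (2990 bases; r = -0.999) and ENST00000322764 (2493 bases; r = -0.997). For ENST00000322764 control libraries 1, 2 and 3 gave 105, 97.8 and 115 CPM, and PRPF39 shRNA libraries gave 131, 170 and 147 CPM. Its log2 fold change was 0.50 ± 0.12 (SE), with an adjusted p of 0.0477 in the test restricted to 5 CPM or more and 0.113 in the wider one (edgeR). ENST00000238788 differed less, with a control mean of 49.6 ± 1.75 CPM and a PRPF39 shRNA mean of 56.1 ± 2.59 CPM (SD over 3 libraries in each group). ENST00000238788 passed in neither test (adjusted p = 0.326 at 5 CPM or more and 0.324 in the wider one, edgeR). In CPM, the outermost libraries of all 4 transcripts, as of PRPF39, were control replicate 2 and PRPF39 shRNA replicate 2. This follows from choosing them by correlation with PRPF39. In TPM, ENST00000436013 and ENST00000322764 kept these outermost libraries. PRPF39 was instead highest in control replicate 1 (9.98 TPM, against 9.86 in control replicate 2). ENST00000394991 was also highest in control replicate 1 (18.9 TPM, against 16.4 in control replicate 2). ENST00000238788 was highest in PRPF39 shRNA replicate 3 (23.6 TPM, against 23.0 in PRPF39 shRNA replicate 2).

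**Figure D3:**
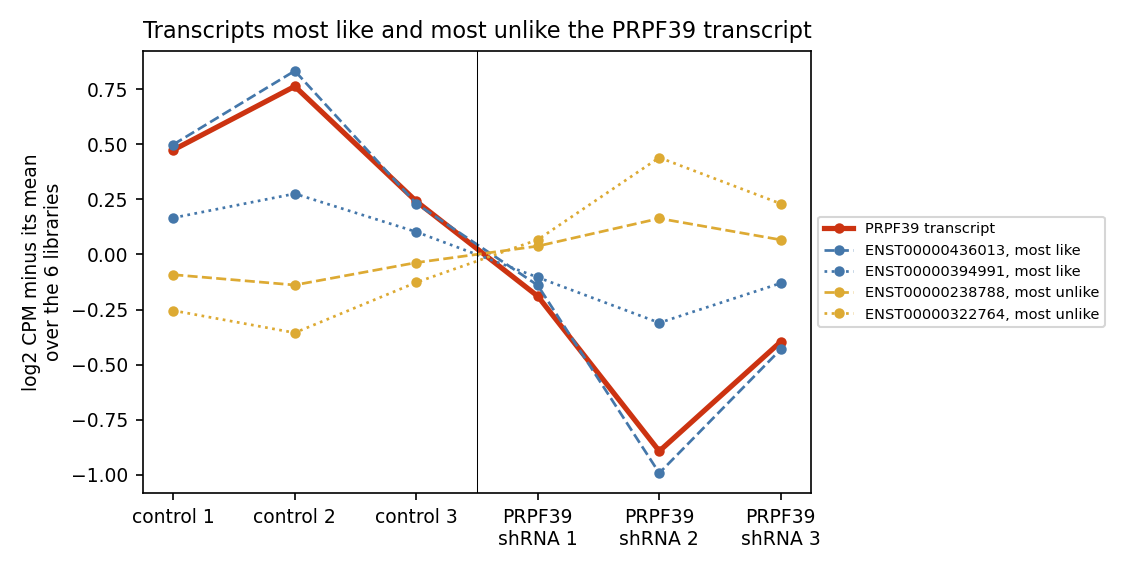
Log2 CPM of the PRPF39 transcript and of the 2 most similar and 2 most opposite transcripts, each minus its mean over the 6 libraries (y axis), by library (x axis). Lines join the values of 1 transcript and replicates have no order. In CPM, control replicate 2 and PRPF39 shRNA replicate 2 are the outermost libraries for all 5 transcripts, which follows from the choice by correlation.

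The direction for PRPF39 was the same in every fit that was run. All fits drew on the same 6 libraries, whose groups did not overlap, so this agreement adds no separate evidence. Over 16 alternatives of normalization, filter, tool, length correction, pairing and left-out library, the log2 fold change was negative in 16 and ran from -1.13 to -0.80. Both ends came from leaving out a PRPF39 shRNA library. The log2 fold change was -1.13 without replicate 1, the highest of its group, and -0.80 without replicate 2, the lowest. Without PRPF39 shRNA replicate 2 the remaining TPM was 59.8% of control, and without replicate 1 it was 46.9%.

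**Figure D4:**
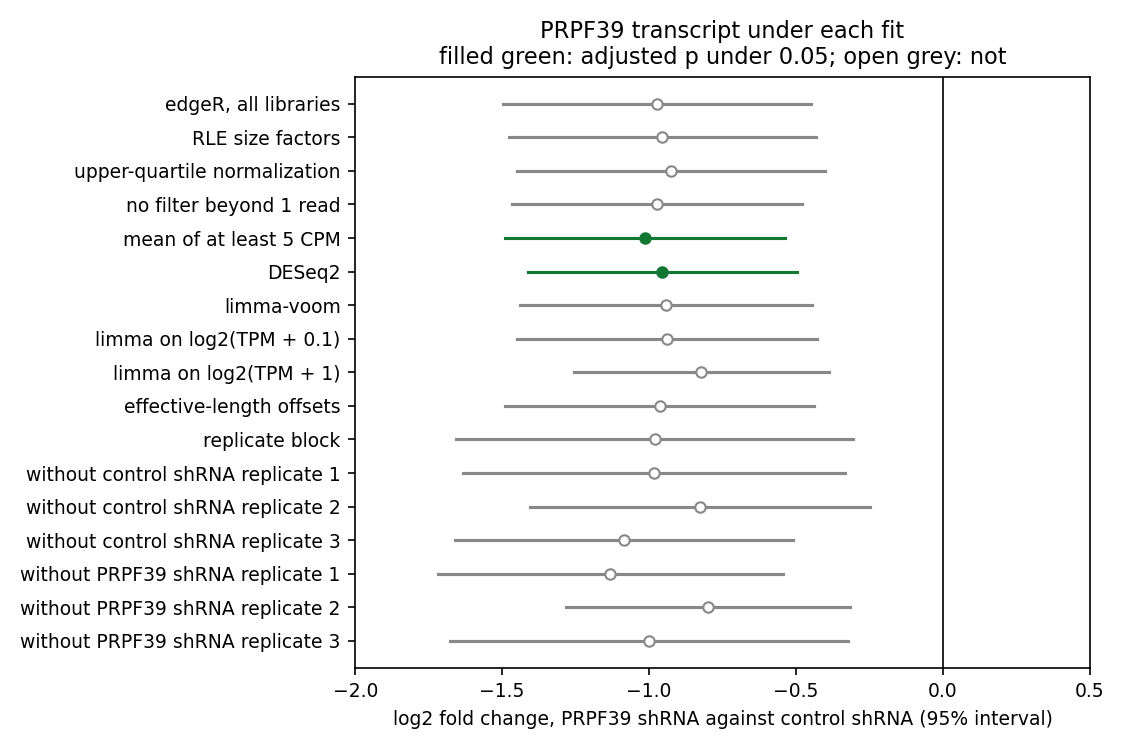
Log2 fold change of the PRPF39 transcript with its 95% interval (x axis) under the edgeR fit to all libraries and 16 alternatives (y axis). Every interval lies below 0, and the filled points, the fit restricted to 5 CPM or more and DESeq2, are those with an adjusted p under 0.05.

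Other transcripts of PRPF39, the other U1 snRNP genes and markers of HEK293 cells were planned and not analysed here, because the tables used do not pair transcript identifiers with genes. The values above therefore describe 1 transcript and not the gene's total RNA, and PRPF39 protein was not measured in these data.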

How the data were processed

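The build was hg38, and Salmon 0.11.1, DESeq2 1.32.0, STAR 2.7.9a and cutadapt 2.1 were used, per the submitters' processing notes; options and annotation release are not given in the sources used here. The authors deposited 1 table per library with estimated counts, not scaled for depth, and TPM values based on each library's effective lengths, per the file headers. Salmon divides reads that match several transcripts by a model, and that uncertainty is not in the tables.

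Rounded estimated counts entered edgeR 4.0.16 under R 4.3.3, with filterByExpr at a minimum count of 10, TMM, the quasi-likelihood test of group over 6 libraries and Benjamini-Hochberg adjustment over all 97571 transcripts tested, which held 99.8% to 99.9% of counts. SE was the log2 fold change over the square root of F. Log2 CPM used a prior count of 2. DESeq2 1.42.0 and limma 3.58.1 were alternatives. The edgeR step was run on simulated data to check the code, and how often it recovers changes is not reported here. No pair of libraries agreed within sampling noise (chi-square per degree of freedom at least 29.2), so none was treated as a library deposited more than once. This does not show that they are biological replicates. The named transcripts were ENST00000355765 and the 2 most and 2 least correlated with it at a mean of at least 5 CPM. The pairing of ENST00000355765 with PRPF39 was taken as given, since no table used here pairs transcript identifiers with genes. Members and lists were chosen with earlier results of these data known.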

Additional observations from a re-analysis of the deposited data

How the results depend on the processing

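The adjusted p of the PRPF39 transcript stayed above 0.05 in 14 of 16 alternatives, and the other 2 passed: a mean of at least 5 CPM (log2 fold change -1.01) and DESeq2 (-0.95). Over all 16 the adjusted p ran from 0.000967 to 0.298. Leaving out each library gave -1.13 to -0.80 in the wider test, with adjusted p from 0.166 to 0.298 (edgeR), and -1.16 to -0.84 at 5 CPM, alternatives chosen after seeing the data, with adjusted p from 0.0257 to 0.0621 (edgeR). At 5 CPM the call was lost without control replicate 2 (-0.91) and without PRPF39 shRNA replicate 3 (-1.06). The 882 transcripts called became 3574 at a mean of at least 5 CPM, 9024 with DESeq2 and 0 to 22 without each library; the cause was not tested. Replicate numbers were not taken as pairs, since deviations of same-numbered libraries correlated at 0.16, 0.03 and 0.00. With the replicate block the PRPF39 log2 fold change was -0.98 (adjusted p = 0.249, edgeR), and 0 transcripts were called, with 14264 at an unadjusted p under 0.05. With the block at 5 CPM it was -1.03 (adjusted p = 0.0298, edgeR). Under the block the TPM difference was -4.35 (exact sign-flip permutation p = 0.25, the smallest that 3 pairs allow). The remaining level, in TPM or CPM, stayed between 46.9% and 59.8% of control over 9 alternatives. Counting error was 2.0% to 4.1% per library, and other effects of depth were not tested.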
